A study of Mus musculus with 109 samples.

Results

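TNF, its receptors and their adaptors are represented here by 9 genes of the 37315 in the count table. They are the ligand Tnf, the receptors Tnfrsf1a, Tnfrsf1b, Fas, Ltbr, Tnfrsf10b and Tnfrsf12a, and the adaptors Tradd and Traf2. The genes were chosen by name, as members of the TNF ligand, receptor and adaptor family, and each was found by the Ensembl identifier that belongs to its symbol. The rule used no measured value, although the genes were chosen with earlier results of these data known. All 9 were present in the table and carried reads in every group.

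TNF is a cytokine that is made as a membrane protein, can be shed as a soluble trimer, and signals through a pair of receptors. TNFR1, the product of Tnfrsf1a, carries a death domain that recruits the adaptor TRADD, and a complex of TRADD, RIPK1, TRAF2 and inhibitor of apoptosis proteins then either activates NF-kB and JNK or, when that arm fails, leads to caspase 8 and cell death. TNFR2, the product of Tnfrsf1b, has no death domain, binds TRAF2 directly, and is found mainly on immune, endothelial and glial cells, including microglia. In the retina, TNF from glia and infiltrating leukocytes has long been linked to damage of retinal ganglion cells (RGCs), the output neurons whose axons form the optic nerve.

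The study asked how the cytokines IL1A and TNF, alone and together, lead to the death of RGCs. RNA from whole retinas of 64 mice was sequenced after intravitreal injection (into the vitreous of the eye), and the value of a gene in a retina is the number of read pairs assigned to it. The mice were C57BL/6J (WT) or deficient in Sarm1 (Sarm1-/-), a gene whose product drives axon degeneration, and both sexes were used at 2 to 4 months of age by the series description. The day 2 retinas of WT mice in batch 1 comprised 31 that received PBS, 8 that received TNF, 9 that received IL1A and 10 that received IL1A+TNF. In batch 1, WT retinas were also taken at day 14 (7 PBS from 6 mice, 6 TNF) and at day 35 (6 PBS, 9 TNF). Batch 2 held day 2 retinas of WT mice (5 PBS, 6 IL1A+TNF) and of Sarm1-/- mice (6 PBS, 6 IL1A+TNF), so every Sarm1-/- retina belongs to batch 2. Of the 64 mice, 45 contributed both eyes, and PBS retinas are mostly the other eye of a mouse whose first eye received a cytokine. A PBS retina has therefore also been through an injection, and none of the groups is an eye that was never injected. In bulk tissue such as this, fewer cells of a type and less RNA per cell cannot be told apart.

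Total counts per retina ranged from 30014757 to 79064488, with a median of 39374202. Levels are given in CPM, the usual scaling of counts to a common library total, here with TMM factors, and a log2 fold change (FC) comes from limma with its standard error (SE). A gene is called where its Benjamini-Hochberg false discovery rate (FDR) over all genes tested in that comparison is under 0.05. Markers of retinal cells were present in every group, with summed levels of 7 rod markers from 21185 to 59943 CPM. Sarm1 itself was lower in every Sarm1-/- retina (26 to 52.9 CPM) than in any WT retina (76.2 to 138 CPM). Libraries of 5 mice stood apart and touch results below. In mouse 60584 the library labelled TNF had the lowest sum of 6 monocyte markers of its group (0.160 CPM, against up to 55.1 CPM in the other TNF retinas), while its library labelled PBS had the highest of the 31 PBS retinas (21.2 CPM). The IL1A+TNF libraries of Sarm1-/- mice 61924 and 61926 lay farther from the median of their group than any other library (root mean square log2 distances of 0.812 and 0.895, against a median of 0.396), with sums of 8 RGC markers of 107 and 89.1 CPM against 295 to 686 CPM in the other 4. The PBS libraries of Sarm1-/- mice 61561 and 61564 had sums of 9 neutrophil markers of 105 and 102 CPM, against 5.14 to 17 CPM in the other 4. Results that rest on these libraries are given with and without both eyes of these mice, a choice made after seeing the data.

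The 9 genes lie on 7 chromosomes of mouse build mm10, and no exon of another counted gene shares bases with theirs. Tnf is on the reverse strand of chromosome 17 (35199381 to 35202007) and Tnfrsf12a on the same chromosome (23675445 to 23677468, reverse). Tnfrsf1a (125349362 to 125362484, forward) and Ltbr (125306571 to 125313885, reverse) are close neighbours on chromosome 6. Tnfrsf1b is on chromosome 4 (145213463 to 145246870, reverse), Fas on chromosome 19 (34290666 to 34327772, forward) and Tnfrsf10b on chromosome 14 (69767472 to 69784411, forward). Tradd is on chromosome 8 (105258286 to 105264609, reverse) and Traf2 on chromosome 2 (25517982 to 25546940, reverse).

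The sequences before the start sites of Tnf, Tnfrsf1b and Fas are shown because these genes had the largest differences after IL1A+TNF at day 2. Each is the 250 bases upstream of the start that RefSeq gives on GRCm38.p6, written 5′ to 3′ on the gene's own strand, with motif matches in capitals. The first is chr17:35202008-35202257 (reverse strand), the second chr4:145246871-145247120 (reverse strand) and the third chr19:34290409-34290658 (forward strand).
Tnf: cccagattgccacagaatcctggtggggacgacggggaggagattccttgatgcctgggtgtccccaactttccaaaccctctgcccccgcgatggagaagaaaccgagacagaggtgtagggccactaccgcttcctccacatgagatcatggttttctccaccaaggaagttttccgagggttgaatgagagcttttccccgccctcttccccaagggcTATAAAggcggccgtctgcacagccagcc
Tnfrsf1b: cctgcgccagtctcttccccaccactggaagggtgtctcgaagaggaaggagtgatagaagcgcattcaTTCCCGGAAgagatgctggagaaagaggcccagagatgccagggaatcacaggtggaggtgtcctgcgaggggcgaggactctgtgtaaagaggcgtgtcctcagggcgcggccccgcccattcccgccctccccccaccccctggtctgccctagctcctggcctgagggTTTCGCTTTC
Fas: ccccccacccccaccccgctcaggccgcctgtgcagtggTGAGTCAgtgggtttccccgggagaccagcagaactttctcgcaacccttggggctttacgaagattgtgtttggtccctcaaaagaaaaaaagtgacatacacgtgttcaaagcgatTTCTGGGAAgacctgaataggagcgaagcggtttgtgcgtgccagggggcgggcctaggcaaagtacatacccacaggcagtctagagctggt
In Tnf the capitals mark a TATA box (TATAAA) from base -29 to -24 before the start. In Tnfrsf1b they mark a GAS motif, to which STAT proteins bind (TTCNNNGAA, -181 to -173), and an IRF motif, to which interferon regulatory factors bind (GAAA, any 2 bases, then GAAA, here on the other strand, -10 to -1). In Fas they mark an AP-1 motif (TGANTCA, -211 to -205) and a GAS motif (-93 to -85). Both strands of the 7 member promoters in the RefSeq table were searched for these 4 motifs and for a kappaB core (GGG, any 3 bases, then TTCC), to which NF-kB binds. Of the other 4 promoters, Tnfrsf1a held a GAS motif (-244 to -236) and Ltbr, Tnfrsf12a and Traf2 held no match, and no kappaB core was in any of the 7 windows. Among 32851 promoters of the same length, 12.368% held the TATA box, 7.02% the GAS motif, 6.749% the AP-1 motif, 4.648% the kappaB core and 2.977% the IRF motif. A match is a description of these letters and says nothing of whether a factor was bound.

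Scaled to exon length, the genes differed widely in WT PBS retinas at day 2. Tnfrsf1a had the highest level (10.3 ± 2.61 RPKM, SD, n = 31), followed by Ltbr (4.59 ± 1.01 RPKM), Traf2 (3.76 ± 0.252 RPKM) and Tnfrsf12a (3.38 ± 1.03 RPKM). Then came Tnfrsf1b (1.90 ± 0.712 RPKM), Tradd (1.46 ± 0.238 RPKM) and Fas (1.18 ± 0.455 RPKM). Tnfrsf10b (0.502 ± 0.108 RPKM) and Tnf (0.103 ± 0.0651 RPKM) were lowest. In this order, the ranges of mean ± SD overlapped among Ltbr, Traf2 and Tnfrsf12a, between Tnfrsf12a and Tnfrsf1b, and among Tnfrsf1b, Tradd and Fas. In terms of these per-length levels, the receptor with a death domain exceeded the TNF receptor without it, and the message of the ligand was near the limit of detection, with 0 to 15 counts per PBS retina.

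At day 2, IL1A+TNF retinas had more RNA of the ligand, of most receptors and of both adaptors than PBS retinas. Of the 9 genes, 8 were higher and called (24.9% of the 19548 genes tested were called as higher, and 50.4% were called in either direction), and Tnfrsf10b was not called. Tnf and Tnfrsf1b differed most, with log2 FCs of 2.32 and 1.91. The median log2 FC of the 9 genes was 0.87, beside -0.02 over all genes tested.

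Tnf, which encodes the ligand itself, had levels of 0, 0.131 and 0.415 CPM (lowest, median and highest) in 31 PBS retinas and of 0.344, 0.842 and 1.33 CPM in 10 IL1A+TNF retinas. In counts this was 0 to 15 per PBS retina and 15 to 52 per IL1A+TNF retina. The groups nearly parted, since 9 of the 10 IL1A+TNF retinas lay above the highest PBS retina, and the IL1A+TNF eye was higher in 8 of 8 mice with both eyes. The log2 FC was 2.32 (SE 0.23, FDR 7.7e-13).

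Tnfrsf1b, which encodes TNFR2, had levels of 3.40, 7.30 and 13.4 CPM in PBS retinas and of 19.6, 26.5 and 38.1 CPM in IL1A+TNF retinas. It was the only member of the 9 in which these groups did not overlap, and over all genes this was not counted. The log2 FC was 1.91 (SE 0.16, FDR 4.5e-15). Tnfrsf1a, which encodes TNFR1, had levels of 16.9, 25.5 and 45.4 CPM in PBS retinas and of 34.6, 46.6 and 69.8 CPM in IL1A+TNF retinas. All 10 IL1A+TNF retinas lay above the PBS mean and 7 above the highest PBS retina, with a log2 FC of 0.91 (SE 0.11, FDR 4.8e-10).

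Fas encodes the receptor of FASL, which starts apoptosis through FADD and caspase 8, and had levels of 1.15, 2.25 and 5.02 CPM in PBS retinas and of 2.00, 4.35 and 6.87 CPM in IL1A+TNF retinas. The groups overlapped over much of their range, with 3 of 10 IL1A+TNF retinas above the highest PBS retina and 7 of 8 mice higher in the IL1A+TNF eye, and the log2 FC was 0.92 (SE 0.15, FDR 5.8e-07). Ltbr encodes the lymphotoxin beta receptor, which signals to the noncanonical NF-kB pathway, and had levels of 7.51, 10.1 and 17.3 CPM in PBS retinas and of 13.2, 18.9 and 31.3 CPM in IL1A+TNF retinas. Of the latter, 8 of 10 lay above the highest PBS retina, and the log2 FC was 0.87 (SE 0.10, FDR 1.8e-10). Tnfrsf12a encodes the receptor of TWEAK, which is induced by injury in many tissues, and had levels of 4.22, 6.36 and 12.3 CPM in PBS retinas and of 6.54, 8.77 and 17 CPM in IL1A+TNF retinas. The overlap was large, with 2 of 10 IL1A+TNF retinas above the highest PBS retina, although all 10 lay above the PBS mean, and the log2 FC was 0.55 (SE 0.12, FDR 0.00012). Tnfrsf10b encodes the mouse death receptor of TRAIL, with 1.74, 2.74 and 5.04 CPM in PBS retinas and 1.79, 2.93 and 3.97 CPM in IL1A+TNF retinas. Its groups overlapped throughout, and its log2 FC of 0.14 (95% confidence interval -0.05 to 0.34, FDR 0.22) was not called.

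Both adaptors were called with smaller log2 FCs than the receptors that were called. Tradd, which links the death domain of TNFR1 to RIPK1 and TRAF2, had levels of 2.12, 2.65 and 3.89 CPM in PBS retinas and of 3.18, 3.67 and 4.13 CPM in IL1A+TNF retinas (log2 FC 0.43, SE 0.07, FDR 1.5e-06). Traf2, which brings inhibitor of apoptosis proteins to both TNF receptors, had levels of 16.1, 19.3 and 21.7 CPM in PBS retinas and of 20.1, 21.8 and 28.1 CPM in IL1A+TNF retinas (log2 FC 0.23, SE 0.04, FDR 4.5e-06). For both adaptors every IL1A+TNF retina lay above the PBS mean, and the IL1A+TNF eye was the higher in 8 of 8 mice.

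**Figure D1:**
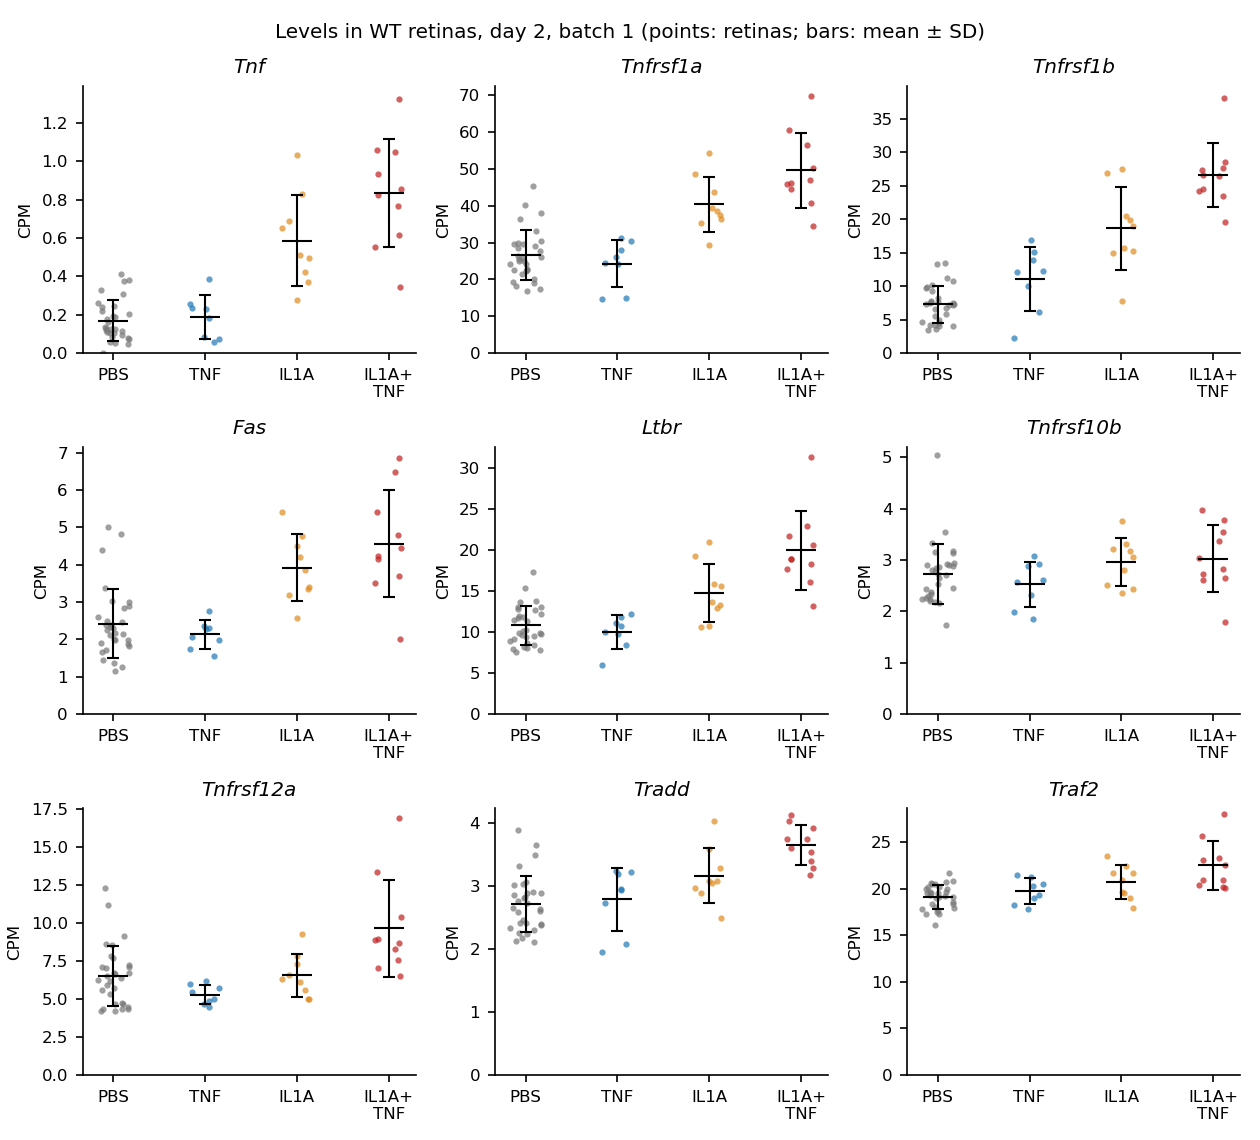
Levels of the 9 genes in CPM (vertical axes, linear and from 0) in WT retinas of batch 1 at day 2, by injection (horizontal axes). Each point is a retina and the bars give mean ± SD (n = 31 PBS, 8 TNF, 9 IL1A and 10 IL1A+TNF). The IL1A+TNF points stand clear of the PBS points for Tnfrsf1b, from 19.6 CPM up against at most 13.4 CPM, while for Tnfrsf10b all groups share the same range.

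Markers of cells that enter from the blood were higher in the same retinas. The summed level of the 9 of 9 neutrophil markers in the table had a median of 15.9 CPM in PBS retinas (2.90 to 130 CPM) and of 183 CPM in IL1A+TNF retinas (119 to 751 CPM). Of these 9 markers, 5 had a median under 1 CPM in each group, and Ly6g had a median of 0 in both. The 6 of 6 monocyte markers had a median sum of 4.79 CPM in PBS retinas (0.893 to 21.2 CPM) and of 42.1 CPM in IL1A+TNF retinas (33.9 to 101 CPM). Of these 6 markers, 5 had a median under 1 CPM in PBS retinas and 3 in IL1A+TNF retinas. The 8 of 8 microglial markers had median sums of 89.6 CPM (66.2 to 114 CPM) and 148 CPM (113 to 179 CPM). Of these markers, 0 had a median under 1 CPM in PBS retinas and 1 in IL1A+TNF retinas, so not every marker was higher. Sums of the 7 rod markers had medians of 45221 CPM (34824 to 54056 CPM) and 24788 CPM (22180 to 40464 CPM). T cell and B cell markers stayed low, with median sums of at most 2.64 CPM in any group. The part of these cells in the differences of the 9 genes was not tested.

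IL1A retinas were compared with the same 31 PBS retinas, as were TNF retinas, so these comparisons share their controls. Of the 9 genes, 7 were higher and called (12% of genes tested were called as higher, and 21.4% in either direction), while Tnfrsf12a and Tnfrsf10b were not called. Tnf had levels of 0.276, 0.512 and 1.03 CPM in 9 IL1A retinas, and Tnfrsf1b had 7.74, 18.9 and 27.6 CPM. Of the 9 IL1A retinas, 7 lay above the highest PBS retina for Tnf and 8 for Tnfrsf1b, and both genes were higher in the IL1A eye in 7 of 7 mice. Their log2 FCs were 1.89 (SE 0.25, FDR 2.5e-08) and 1.40 (SE 0.18, FDR 6.6e-09).

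The other receptors overlapped more with PBS retinas after IL1A. Fas had 2.56, 3.85 and 5.42 CPM (log2 FC 0.73, FDR 0.00045), Tnfrsf1a 29.3, 38.5 and 54.2 CPM (0.63, FDR 3.9e-05) and Ltbr 10.6, 13.7 and 20.9 CPM (0.45, FDR 0.0025). Within mice these were less even, the IL1A eye being higher in 4 of 7 mice for Fas and Ltbr and in 5 of 7 for Tnfrsf1a. The adaptors had log2 FCs of 0.23 (Tradd, FDR 0.033) and 0.12 (Traf2, FDR 0.031). Tnfrsf12a, at 4.98, 6.31 and 9.32 CPM, had a log2 FC of 0.04 (95% interval -0.24 to 0.32, FDR 0.89), and Tnfrsf10b one of 0.12 (-0.09 to 0.33, FDR 0.46). With mouse as a fixed term, which uses only the 7 mice with an IL1A and a PBS eye, 2 of the 9 genes remained called, Tnf (log2 FC 1.80, FDR 0.020) and Tnfrsf1b (1.49, FDR 0.0023), and over all genes 1244 were called in place of 4193. Over all alternatives the FDR of Tnf ranged from 6.3e-10 to 0.020 and that of Tnfrsf1b from 2.3e-11 to 0.0023.

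After TNF alone at day 2, none of the 9 genes was called by limma (0.655% of genes tested were, and 1497 had an unadjusted p under 0.05). The Tnf message itself was at 0.0578, 0.207 and 0.388 CPM in 8 TNF retinas, within the range of the PBS retinas (log2 FC 0.22, 95% interval -0.48 to 0.92). Tnfrsf1b had the largest difference, with levels of 2.31, 12.2 and 16.8 CPM. Of the 8 TNF retinas 6 lay above the PBS mean of 7.25 CPM, and the lowest value, below every PBS retina, was that of the library labelled TNF of mouse 60584, whose library labelled PBS had 9.66 CPM. The log2 FC was 0.53 (SE 0.22, unadjusted p 0.017, FDR 0.45). Without both eyes of mouse 60584 it was 0.85 (FDR 0.0013) and Tnfrsf1b was called, and without that TNF retina alone it was 0.84 (FDR 0.0015), in a range of FDRs over all alternatives from 0.0013 to 0.79. Leaving out the lowest TNF value raises the difference by construction, so this call adds no independent support.

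The sum of the 6 monocyte markers also had a higher median in TNF than in PBS retinas. It was 33.0 CPM in TNF retinas (0.160 to 55.1 CPM) against 4.79 CPM in PBS retinas. Of these markers, 5 had a median under 1 CPM in PBS retinas and 3 in TNF retinas. The neutrophil sum had a median of 21 CPM (3.21 to 49.1 CPM) against 15.9 CPM, and the microglial sum one of 128 CPM (62.1 to 146 CPM) against 89.6 CPM. The part of these cells in the level of Tnfrsf1b was not tested. Tnfrsf1a (log2 FC -0.13), Fas (-0.11), Ltbr (-0.10), Tnfrsf10b (-0.10) and Tnfrsf12a (-0.24) had intervals that included 0, for example -0.56 to 0.07 for Tnfrsf12a and -0.50 to 0.29 for Fas. The adaptors had log2 FCs of 0.04 (Tradd) and 0.05 (Traf2), with an interval of -0.05 to 0.14 for Traf2.

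**Figure D2:**
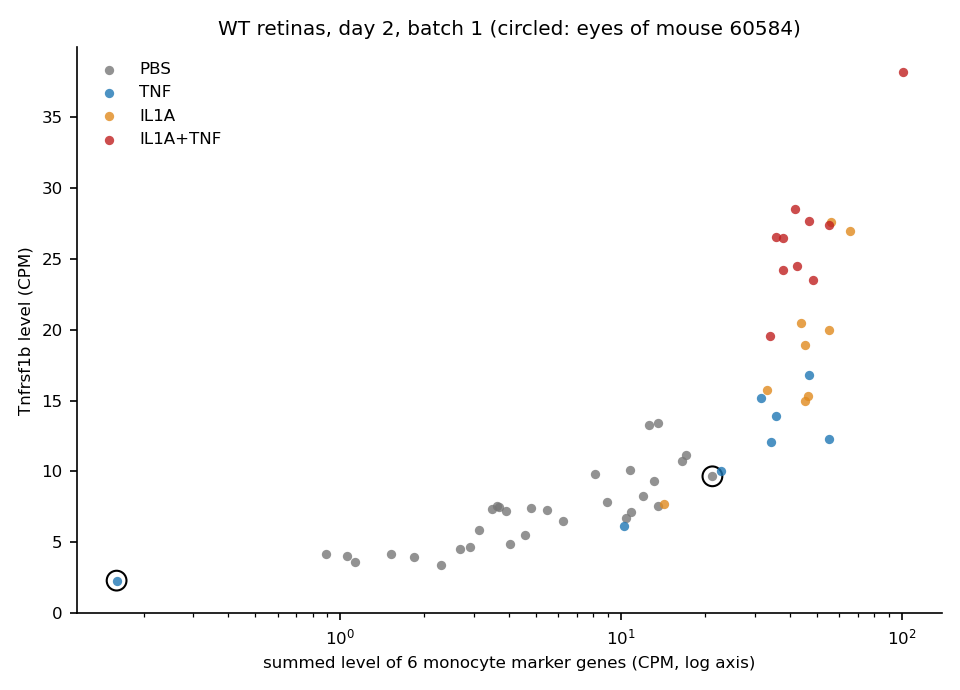
Level of Tnfrsf1b (CPM, vertical axis) against the summed level of 6 monocyte markers (CPM, horizontal log axis) in WT retinas of batch 1 at day 2, each point a retina coloured by injection. The circled points are the eyes of mouse 60584, at 2.31 CPM with a marker sum of 0.160 CPM for the library labelled TNF and at 9.66 CPM with 21.2 CPM for the library labelled PBS, and the highest point is an IL1A+TNF retina at 38.1 CPM.

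What TNF added to IL1A was seen in Ltbr and Tnfrsf12a. In IL1A+TNF retinas compared with IL1A retinas, 2 of 9 genes were called (10.1% of genes tested were), both higher (5.39% of genes tested were called as higher). Ltbr was at 19.9 ± 4.84 CPM (SD, n = 10) against 14.7 ± 3.55 CPM (n = 9), with a log2 FC of 0.42 (SE 0.13, FDR 0.029). Tnfrsf12a was at 9.66 ± 3.20 CPM against 6.57 ± 1.40 CPM, with a log2 FC of 0.51 (SE 0.16, FDR 0.032). For each of them 9 of 10 IL1A+TNF retinas lay above the IL1A mean and 3 lay above the highest IL1A retina. Without the filter on low counts only Ltbr was called, and the FDR of Tnfrsf12a was 0.052, the highest of its range over alternatives, which began at 0.017. Tnfrsf1b had the same log2 FC of 0.51 with an FDR of 0.075, which fell to 0.030 without mouse 60584 and to 0.037 without the sex term and ranged from 0.030 to 0.17. Tnf differed by 0.43 (95% interval -0.09 to 0.95) and Fas by 0.19 (-0.18 to 0.56).

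Compared with TNF retinas, IL1A+TNF retinas were higher in 8 of 9 genes (20% of genes tested were called as higher, 39% in either direction), with Tnfrsf10b at a log2 FC of 0.24 (FDR 0.15) the exception. Tnf differed by 2.10 (SE 0.36, FDR 4.9e-06) and Tnfrsf1b by 1.38 (SE 0.23, FDR 2.5e-06). The ranges of Tnfrsf1a, Tnfrsf1b, Ltbr and Tnfrsf12a did not overlap between these groups. Their log2 FCs were 1.03, 1.38, 0.96 and 0.79. Ranges without overlap were not counted over all genes.

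The interaction term asks whether the log2 FC of IL1A+TNF differs from the sum of those of IL1A and TNF alone. It was called for 1 of 9 genes (3.6% of genes tested), Tnfrsf12a, at 0.75 (SE 0.23, FDR 0.047). The levels of Tnfrsf12a were 6.52 ± 1.99 CPM in PBS, 5.29 ± 0.622 CPM in TNF, 6.57 ± 1.40 CPM in IL1A and 9.66 ± 3.20 CPM in IL1A+TNF retinas, so that TNF and IL1A alone had means below or close to that of PBS. The FDR ranged from 0.0071 to 0.071 over alternatives, and it was 0.071 with no filter on low counts. The term was 0.52 for Ltbr (FDR 0.11), 0.41 for Tnfrsf1a (FDR 0.26), 0.21 for Tnf (95% interval -0.66 to 1.08) and -0.02 for Tnfrsf1b (-0.59 to 0.56).

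**Figure D3:**
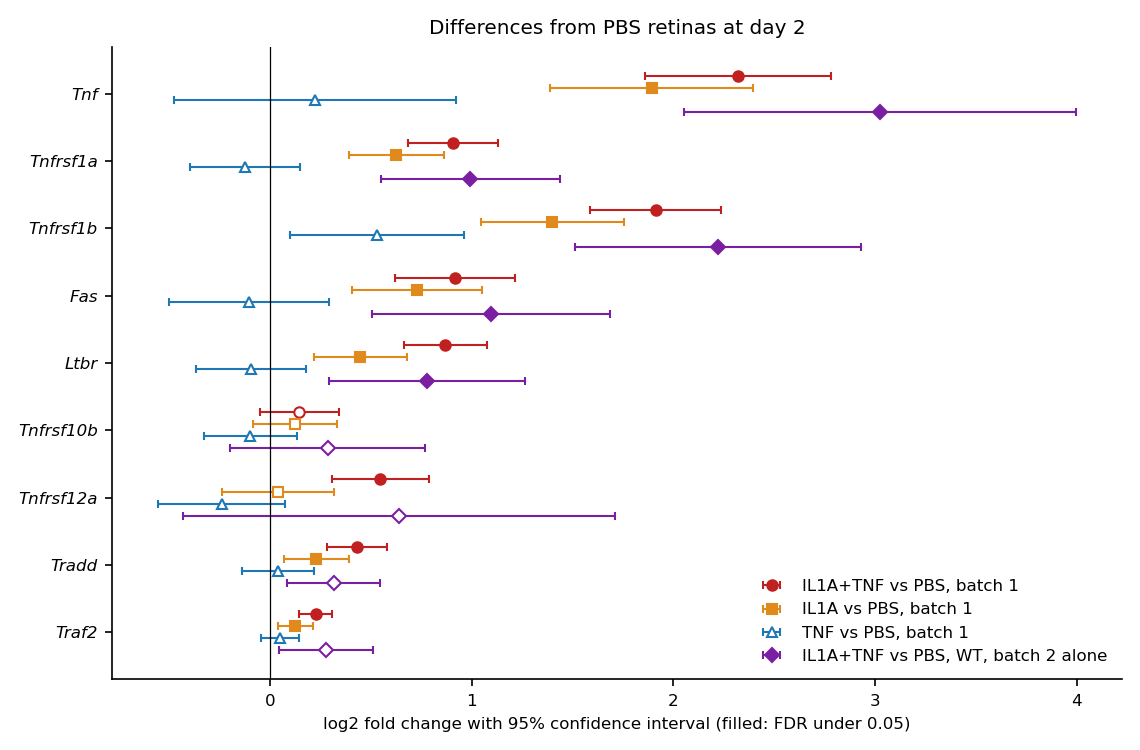
Log2 FC against PBS retinas with 95% confidence interval (horizontal axis) for each of the 9 genes in 4 comparisons at day 2 of WT retinas, with filled symbols where the FDR is under 0.05. The IL1A+TNF estimates of both batches and the IL1A estimates lie to the right of 0 for each gene, and every TNF symbol is open.

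The IL1A+TNF comparison was repeated in WT mice of batch 2, which share no retina with batch 1. The fit also held the Sarm1-/- retinas of batch 2, those of mice 61924 and 61926 among them. Their spread therefore enters these tests, and a fit of the WT retinas alone was not run. In this fit, 5 of 9 genes were called, all higher (13.3% of genes tested were called as higher, and 20.9% in either direction). Tnf was at 0.669 to 2.17 CPM in 6 IL1A+TNF retinas and 0.0663, 0.0886, 0.0938, 0.188 and 0.251 CPM in 5 PBS retinas, with a log2 FC of 3.03 (SE 0.47, FDR 0.00012). Tnfrsf1b was at 29.8 to 56.5 CPM against 5.67, 6.63, 7.87, 8.02 and 9.0 CPM, with a log2 FC of 2.22 (SE 0.34, FDR 0.00012). The groups did not overlap for either gene, nor for Tnfrsf1a, Fas, Ltbr and Traf2, and the IL1A+TNF eye was the higher in 5 of 5 mice for all 6. How many of all genes had groups without overlap was not counted, so these 6 have no share to be set beside. Fas (1.09), Tnfrsf1a (0.99) and Ltbr (0.78) were the other genes called, and Ltbr lost its call without PBS replicate 1 (FDR 0.069) or 4 (FDR 0.074), in a range of FDRs over all alternatives from 0.0031 to 0.074. Tnfrsf12a (0.64, 95% interval -0.43 to 1.71), Tradd (0.31, FDR 0.050, and from 0.023 by DESeq2 to 0.15 over all alternatives), Traf2 (0.28, FDR 0.086) and Tnfrsf10b (0.28, FDR 0.40) were not. In the joint fit of all day 2 retinas with batch as a term, the same 8 genes as in batch 1 were higher (27.8% of genes tested were called as higher, 54.8% in either direction), and Tnfrsf10b was not called (0.20, FDR 0.11).

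At the later days no difference between TNF retinas and their PBS controls was detected. None of the 8 genes that passed the filter was called by limma at day 14 or at day 35, where 0% of the genes tested were called, nor by edgeR or DESeq2. At an unadjusted p under 0.05 there were 838 genes at day 14 and 871 at day 35. At day 14 Fas had 0.997, 1.39 and 1.83 CPM in 6 TNF retinas and 0.591, 0.756 and 1.30 CPM in 7 PBS retinas. All 6 TNF retinas lay above the PBS mean, and the TNF eye was the higher in 4 of 4 mice with both. The log2 FC was 0.74 (SE 0.19, unadjusted p 0.0013, FDR 0.89), with an FDR from 0.31 to 1.00 over the alternatives. Tnfrsf1b at day 14 had a log2 FC of 0.48 (SE 0.17, unadjusted p 0.014, FDR 0.89), and the TNF eye was the higher in 4 of 4 mice. At day 35 the log2 FCs of the 8 genes lay between -0.12 (Tnfrsf12a) and 0.10 (Tnfrsf1b). The difference between the TNF effects of days 14 and 2 was called for none of the 9 genes, and likewise for days 35 and 2 (0% of genes tested, and 759 and 511 genes below 0.05 before adjustment), the largest in size being -1.01 for Tnf (95% interval -2.71 to 0.69) and 0.86 for Fas (0.10 to 1.62) at day 14.

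PBS retinas of different days were also compared. Of 8 genes tested, 5 were lower and called at day 14 compared with day 2 (10.5% of genes tested were called as lower, 19.2% in either direction), and 6 at day 35 (17.4% as lower, 32.8% in either direction). All 6 are receptors, and both adaptors were called at neither day. Tnfrsf1a had 16.9, 25.5 and 45.4 CPM at day 2, 8.79, 10.8 and 14.6 CPM at day 14 and 5.37, 6.99 and 9.08 CPM at day 35. Its ranges at days 14 and 35 lay below that of day 2, and its log2 FCs were -1.26 (SE 0.17, FDR 7.0e-07) and -1.86 (SE 0.20, FDR 3.5e-09). Tnfrsf1b went from a median of 7.30 CPM to 3.04 and 1.99 CPM, with log2 FCs of -1.19 (SE 0.26) and -1.88 (SE 0.32). Fas went from a median of 2.25 CPM to 0.756 and 0.872 CPM (-1.50 and -1.35), and Ltbr from 10.1 CPM to 6.65 and 4.81 CPM (-0.78 and -1.15).

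The last pair of receptors differed less than the others at day 35, though at day 14 Tnfrsf12a differed more than Ltbr. Tnfrsf12a had medians of 6.36, 3.08 and 3.73 CPM at days 2, 14 and 35 (log2 FCs -0.91 and -0.60). Tnfrsf10b, which IL1A+TNF had left without a call, was called at day 35 alone (-0.18, FDR 0.30, and -0.46, FDR 0.0051). Tradd (-0.08 and -0.05) and Traf2 (-0.09 and -0.01) were not called. Tnf did not pass the filter at the later days. Its counts summed to 12 in 7 PBS retinas at day 14, of which 3 had none, and to 5 in 6 PBS retinas at day 35, of which 2 had none, against 202 in 31 PBS retinas at day 2. Fitted with no filter its log2 FCs were -1.84 (FDR 0.0016) and -2.28 (FDR 7.1e-05), values that depend on how counts near 0 are handled. At these depths, Tnf at days 14 and 35 was at the edge of detection in TNF retinas too, with 8 counts in 6 retinas and 7 counts in 9.

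Marker sums moved with the day as well. Median sums in PBS retinas at days 2, 14 and 35 were 4.79, 0.869 and 0.385 CPM for the 6 monocyte markers, 15.9, 1.94 and 1.68 CPM for the 9 neutrophil markers and 89.6, 53.4 and 42.3 CPM for the 8 microglial markers. Among these Ly6g was at a median of 0 at each of the 3 days, Ly6c2 and Mmp8 at days 14 and 35, Cxcr2 and Retnlg at day 14, and Chil3 at day 35. Their part in the differences between days was not tested, and the day cannot be told apart from anything else that differed between retinas taken on different days.

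**Figure D4:**
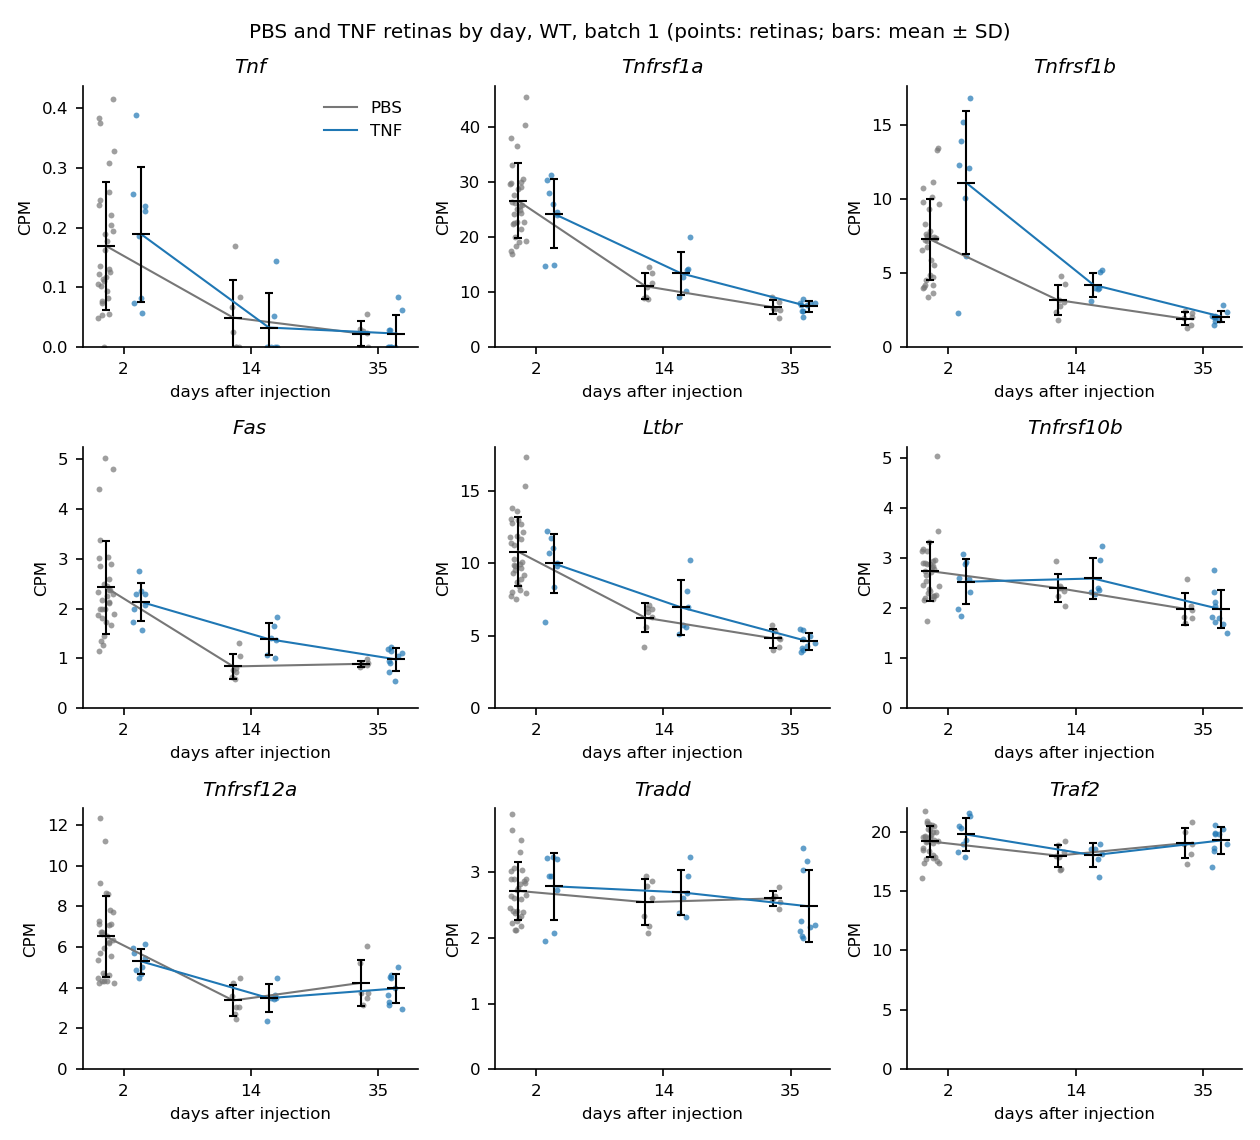
Levels of the 9 genes (CPM, linear axes from 0) in WT PBS and TNF retinas of batch 1 against days after injection, with points for retinas, bars for mean ± SD and lines joining the means (PBS n = 31, 7 and 6, TNF n = 8, 6 and 9). Tnfrsf1a, Tnfrsf1b, Fas and Ltbr fall from day 2 to the later days in PBS retinas, with median Tnfrsf1a levels of 25.5, 10.8 and 6.99 CPM, while Tradd and Traf2 were not called at either day.

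In Sarm1-/- mice, 8 of 9 genes were higher in IL1A+TNF than in PBS retinas (21.3% of genes tested were called as higher, 43.5% in either direction), with the exception of Fas. Tests in these mice and between genotypes come from the joint fit of all day 2 retinas, so WT retinas of both batches enter them. Tnf was at 0.278, 0.842 and 1.21 CPM in 6 IL1A+TNF retinas and at 0.0945, 0.207 and 0.411 CPM in 6 PBS retinas. It was the higher in the IL1A+TNF eye of 5 of 6 mice, and the log2 FC was 1.78 (SE 0.37, FDR 6.5e-05). Tnfrsf1b was at 12.8, 23.2 and 52.2 CPM against 6.03, 8.81 and 12.8 CPM. It was the only gene of the 9 whose groups did not overlap, although only narrowly, and over all genes this was not counted. Tnfrsf1b was higher in the IL1A+TNF eye of 6 of 6 mice (log2 FC 1.57, SE 0.26, FDR 2.5e-06).

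Tnfrsf12a was at 8.20, 13.6 and 64.6 CPM in Sarm1-/- IL1A+TNF retinas against 5.02, 9.05 and 11.2 CPM in PBS retinas. The IL1A+TNF retinas of mice 61924 and 61926, at 52.4 and 64.6 CPM, exceeded the other 4 by far, and these reached at most 16.9 CPM. The log2 FC was 1.23 (SE 0.29, FDR 0.00038), and without both eyes of these mice it was 0.37 (FDR 0.36, the highest over its alternatives, which began at 6.4e-07). Ltbr (0.70), Tnfrsf1a (0.63), Tnfrsf10b (0.48, FDR 0.017), Traf2 (0.38) and Tradd (0.26, FDR 0.039) were also called. Fas was at 3.29, 4.27 and 4.80 CPM against 1.32, 3.07 and 5.75 CPM, with a log2 FC of 0.42 (95% interval -0.05 to 0.88, FDR 0.15).

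These counts rest on few mice. Without both eyes of mice 61924 and 61926, 1 of the 9 genes was called, Tnfrsf1b (log2 FC 1.04, FDR 0.028), Tnf had 1.39 (FDR 0.058), and over all genes 995 were called in place of 8768. The FDR of Tnfrsf1b ranged from 2.4e-08 to 0.028 over the alternatives and that of Tnf from 2.3e-06 to 0.058. Without both eyes of mice 61561 and 61564, whose PBS retinas had the highest Fas levels of their group (5.75 and 5.34 CPM, against at most 3.44 CPM), Fas was called at 0.83 (FDR 0.0078) and all 9 genes were then called, with 10139 of 20494 genes called in all. In the PBS retinas of these mice the neutrophil sums were 105 and 102 CPM and the monocyte sums 18.8 and 39.1 CPM, against at most 17 and 5.07 CPM in the other 4. The IL1A+TNF retinas of mice 61924 and 61926 had neutrophil sums of 658 and 610 CPM, against 102 to 319 CPM in the other 4.

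**Figure D5:**
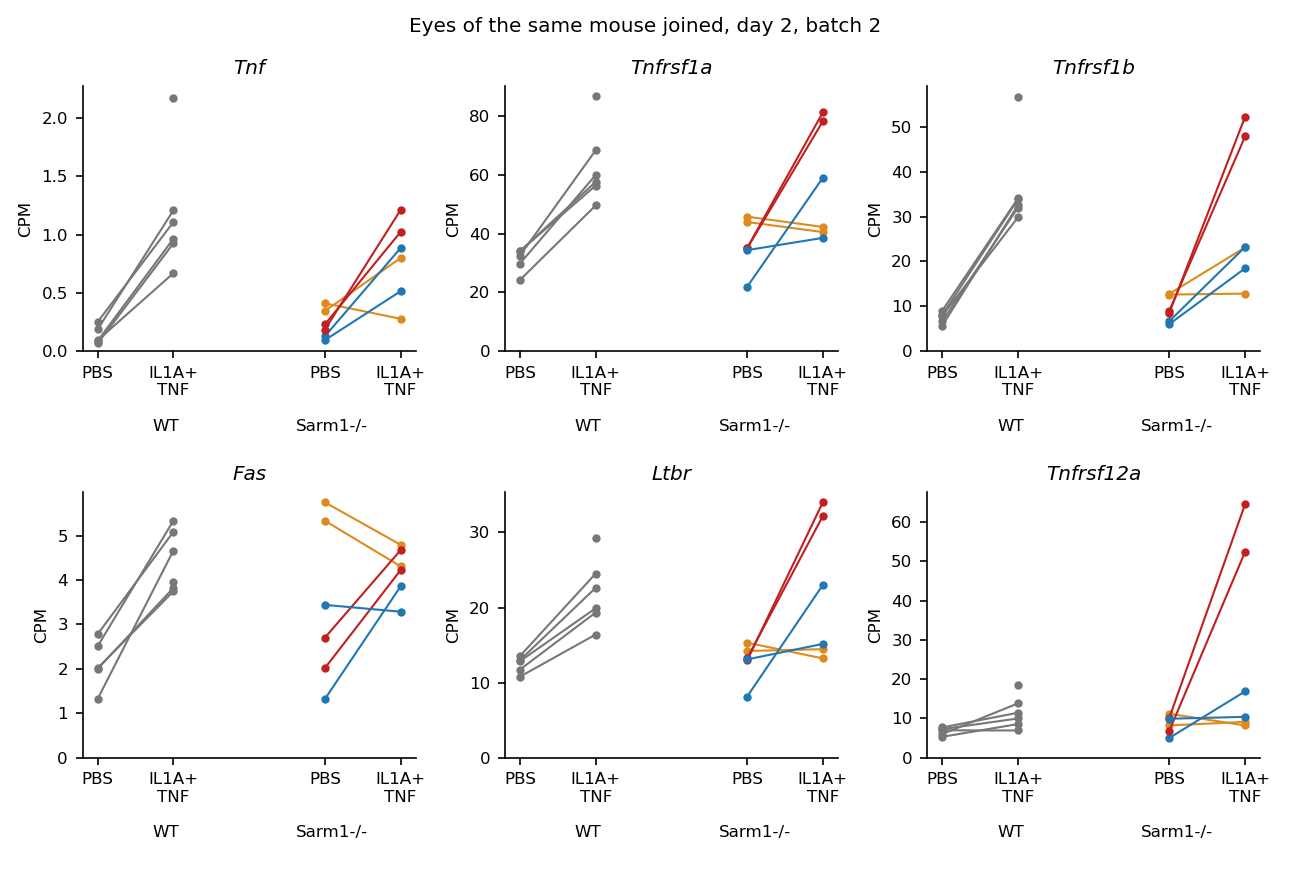
Levels in CPM (linear axes from 0) of 6 of the genes in WT and Sarm1-/- retinas of batch 2 at day 2, each point a retina and each line joining the PBS and IL1A+TNF eyes of a mouse. WT mice are in grey, and among Sarm1-/- mice 61924 and 61926 are in red, 61561 and 61564 in orange and the other 2 in blue, and the WT point without a line is mouse 61719, which has no PBS retina. The red lines climb to 52.4 and 64.6 CPM for Tnfrsf12a, and the orange lines fall for Fas.

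In PBS retinas no difference between genotypes was detected in these genes. None of the 9 genes was called by limma between Sarm1-/- PBS retinas and the WT PBS retinas of both batches (0.0397% of genes tested were, and 984 had an unadjusted p under 0.05). Fas had the largest log2 FC (0.52, SE 0.23, unadjusted p 0.024, FDR 0.96). Without mice 61561 and 61564 it was 0.04, and its FDR stayed between 0.45 and 1.00 over the alternatives. For Tnfrsf1a the log2 FC was 0.14 (95% interval -0.20 to 0.48) and for Tnfrsf1b 0.06 (-0.47 to 0.60), so differences within these intervals are not excluded.

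Under IL1A+TNF, 1 gene was called between genotypes (14.8% of genes tested were), Tnfrsf12a, which was higher in Sarm1-/- retinas (log2 FC 0.87, SE 0.25, FDR 0.014). In batch 2 its levels were 6.92, 10.7 and 18.5 CPM in 6 WT retinas, and 2 of the 6 Sarm1-/- retinas lay above them, those of mice 61924 and 61926. Without these mice the log2 FC was 0.05 (FDR 0.94), and with batch 2 alone it was 0.93 (FDR 0.27), in a range of FDRs from 1.6e-05 to 0.94. Tnf (-0.49, 95% interval -1.07 to 0.08), Tnfrsf1b (-0.36, -0.79 to 0.07) and Tnfrsf1a (-0.16, -0.48 to 0.16) were not called. For Tnfrsf1b, 4 of 6 Sarm1-/- retinas lay below the lowest WT retina of batch 2.

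The interaction of genotype and treatment, which tests whether the IL1A+TNF effect differs between genotypes, was called for none of the 9 genes by limma (8.75% of genes tested were, and 4596 had an unadjusted p under 0.05). The largest terms in size were -0.71 for Tnf (95% interval -1.56 to 0.14), 0.65 for Tnfrsf12a (-0.03 to 1.34) and -0.56 for Fas (-1.10 to -0.02, FDR 0.20). Without mice 61561 and 61564, 3 genes were called, Tnfrsf12a (1.30), Tnfrsf10b (0.70) and Traf2 (0.34), with 4063 of 20494 genes called in all, and without mice 61924 and 61926 none was, among 0 genes called in all.

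Other genes of the family were taken from 4 lists, and at day 2 they were compared in the same fits. Of 17 other TNF superfamily ligands, 16 were in the table and 8 were tested. After IL1A+TNF, 2 were higher, 1 was lower and 5 were not called, with a median log2 FC of 0.03. The share higher is close to the 24.9% of all genes tested. Tnfsf14, which encodes LIGHT, a ligand of LTBR, was called as higher (0.232 ± 0.294 CPM, SD, in PBS and 1.93 ± 2.10 CPM in IL1A+TNF retinas, log2 FC 3.35, SE 0.40). Each of these SDs exceeded its mean. Ltb, which encodes lymphotoxin beta, a subunit of the other ligand of that receptor, was the other gene called as higher (0.238 ± 0.151 and 1.94 ± 0.911 CPM, 3.09, SE 0.27). Tnfsf13, which encodes APRIL, fell by 0.47 on the log2 scale (16.2 to 11.7 CPM). After IL1A alone 3 were higher (12% of all genes tested were) and 5 not called, with log2 FCs of 3.08 for Tnfsf14, 2.77 for Ltb and 0.62 for Tnfsf8, which encodes the ligand of CD30. The ligand genes Fasl and Lta did not pass the filter.

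Of 22 other TNF receptor superfamily genes, 20 were tested. After IL1A+TNF 11 were higher, none lower and 9 not called, with a median of 0.51, beside 24.9% of all genes tested called as higher. The largest log2 FCs were those of Eda2r (2.39, from 0.235 to 1.11 CPM), Tnfrsf14 (1.78, the receptor HVEM, which binds LIGHT), Tnfrsf13b (1.68, the receptor TACI of B cell factors) and Tnfrsf26 (1.53). After IL1A alone 9 were higher, 1 lower and 10 not called, beside 12% of all genes tested called as higher, led by Eda2r (1.65), Tnfrsf14 (1.63), Tnfrsf13b (1.58) and Cd40 (1.37).

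Of 29 genes that act next to the receptors, 15 were higher after IL1A+TNF, 5 lower and 9 not called, beside 24.9% of all genes tested called as higher and 50.4% in either direction. Their median was 0.10, beside -0.02 over all genes. Birc3, which encodes the inhibitor of apoptosis protein that TRAF2 recruits, rose from 2.20 to 7.40 CPM (log2 FC 1.77, SE 0.19), Traf1 by 1.37 and Casp8, the caspase that death receptors activate, from 3.25 to 7.18 CPM (1.15, SE 0.12). Tnfaip3, which encodes A20, a brake on TNF signalling, went the other way and fell from 257 to 114 CPM (-1.20, SE 0.09, FDR 4.1e-16). After IL1A alone, 7 were higher, 2 lower and 20 not called (12% of all genes tested were higher), with Birc3 at 1.61, Traf1 at 1.28, Casp8 at 0.89 and Tnfaip3 at -0.54.

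Of 9 genes that shed TNF or control its message, 6 were higher after IL1A+TNF, 1 lower and 2 not called, beside 24.9% of all genes tested called as higher. Zfp36, which encodes tristetraprolin, a protein that destabilises the TNF message, rose from 8.80 to 21.5 CPM (log2 FC 1.22), Zc3h12a, which encodes the RNase regnase 1, by 0.85, Zfp36l1 by 0.53 and Adam17, the protease that releases soluble TNF, by 0.36 (33.6 to 43.1 CPM). After IL1A alone 5 were higher and 4 not called (12% of all genes tested were higher), led by Zc3h12a (1.04), Zfp36 (0.72), Zfp36l1 (0.38) and Rhbdf2 (0.36). After TNF alone, none of the genes of the 4 lists was called at day 2, where only 0.655% of all genes tested were called.

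Among themselves the 9 genes varied together to different extents. Over all retinas of the 12 groups, with group means removed, Tnfrsf1a and Ltbr had the highest Pearson r of log2 CPM (0.878), followed by Tnfrsf1a and Tnfrsf1b (0.755), and Tnfrsf10b and Tradd the lowest (0.204). Tnf had an r of 0.496 with Tnfrsf1b and of 0.437 with Tnfrsf1a. These are descriptions, since retinas share depth, batch and, in 45 mice, the animal.

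Genes with the most similar pattern were sought for each of the 9 in the same way, among about the same set of 14961 genes expressed at 1 CPM or more on average. By group means over the 12 groups, the closest to Tnf were Tmsb4x, Lsp1 and Sat1 (r of 0.996 and 0.995 for the first pair), to Tnfrsf1b Irak4, Cyba and Cd33 (0.998 each), to Tnfrsf1a Efemp2, Serpinh1 and Neat1 (0.997 for the first), to Ltbr Plin3, Socs3 and Synpo (0.998 for the first) and to Fas Zcchc24, Relb and Adcy4 (0.986 for the first). With group means removed, over all retinas, the closest were Arg1, Fgr and Plek to Tnf (0.590 for the first), Laptm5, Fcgr3 and Ccl6 to Tnfrsf1b (0.896), Slc39a1, Lamp2 and Msn to Tnfrsf1a (0.894), Tnfrsf1a, Cd63 and Pdpn to Ltbr (0.878), Plpp3, Cd44 and Flot1 to Fas (0.716) and Klf6, Nes and Lif to Tnfrsf12a (0.811). For Tradd, Traf2 and Tnfrsf10b the first were Plaur (0.554), Mcl1 (0.702) and Rai14 (0.702).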

How the data were processed

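Whole retinas were sequenced as polyA-selected, paired-end libraries. The authors deposited counts of read pairs per gene, made with STAR 2.7.9a on mm10 and featureCounts of Subread 2.0.1, and the annotation release is not given in the sources used here. Counts depend on the exons that annotation gives, and pairs that map to several places may be lost. Every column was mapped to samples by their labels. Of 37315 genes, 5937 had no read, and symbols and exon lengths came from GENCODE M21.

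Genes were kept by filterByExpr of edgeR 4.0.16 (minimum count 10), scaled by TMM and fitted with voom of limma 3.58.1 in R 4.3.3, with sex and, where batches were joined, batch as covariates, and mouse as a random block estimated by duplicateCorrelation (statmod 1.5.0). The comparison of PBS days had no mouse block. FDRs are Benjamini-Hochberg adjusted over all genes tested. RPKM is CPM divided by exon length. The steps were tested on simulated data.

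The pairing comes from the animal, since both eyes of 45 mice were sequenced. Deviations from group means had a median correlation of 0.0827 within a mouse (-0.265 to 0.339, with 19 of 45 pairs over 0.1) and of -0.00984 between mice. No 2 retinas of a group matched within sampling noise over 716 pairs.

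The members and the gene lists were chosen with earlier results of these data known. Text names all 9 members, up to 4 called genes with the largest log2 FC of each list in each comparison with PBS at day 2, and the 3 genes most alike to each member in each measure, of which some are left out. Alternatives were DESeq2 size factors, no filter, edgeR's quasi-likelihood test, DESeq2 1.42.0, no sex term, no mouse block and mouse as a fixed factor. Further ones left out single retinas or both eyes of single Sarm1-/- mice, or used batch 2 alone. Leaving out both eyes of mouse 60584, of mice 61924 and 61926, or of mice 61561 and 61564 was added after seeing the data.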

Additional observations from a re-analysis of the deposited data

Results flagged for a closer look

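In 7 of 99 sets of a member in a group of 4 to 10 retinas, a single retina lay far from the others by Dixon's ratio, and chance alone gives about 1 in 20. Tnf was at 0.144 CPM in replicate 1 of the WT TNF retinas at day 14, where the next was at 0.0522 CPM, a difference of few reads. In batch 2, replicate 1 of the WT IL1A+TNF retinas (mouse 61719, which has no PBS retina) was highest for Tnf, at 2.17 CPM with the next at 1.21 CPM, and for Tnfrsf1b, at 56.5 CPM with the next at 34.0 CPM. That retina also had the highest neutrophil and monocyte marker sums of its group, 674 and 82.8 CPM, whose part in these values was not tested. In batch 1, Tnfrsf1b was at 38.1 CPM in replicate 2 of the IL1A+TNF retinas, with the next at 28.5 CPM. Ltbr was at 8.13 CPM in replicate 3 of the Sarm1-/- PBS retinas, with the next lowest at 12.9 CPM. Tnfrsf10b was at 2.94 CPM in replicate 5 of the PBS retinas of day 14, with the next at 2.43 CPM, and at 2.58 CPM in replicate 4 of those of day 35, with the next at 2.03 CPM.

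The effect of IL1A on Tnfrsf12a differed with and without TNF, with an interaction term of 0.75 on the log2 scale (FDR 0.047, limma).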

How the results depend on the processing

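Of the log2 FCs of members under alternatives, 1614 kept their direction and side of the threshold, 33 lost and 19 gained a call and 42 turned sign, none of the last past the threshold. With mouse as a fixed replicate block, IL1A called 2 members in place of 7, with the lost genes at Fas 0.44 (FDR 0.43), Ltbr 0.32 (FDR 0.37), Tnfrsf1a 0.54 (FDR 0.094), Tradd 0.20 (FDR 0.49) and Traf2 0.15 (FDR 0.19), and this block changed no member's call for IL1A+TNF at day 2 or TNF at days 2, 14 and 35 in WT retinas of batch 1. That fit uses fewer retinas, was not run for batch 2 or the genotypes, and gave no value for Tnf after TNF. After TNF at day 2, 0 to 1 members were called when single retinas were left out, with 1 called without TNF replicate 6 and 1 without both eyes of mouse 60584, and 454 genes were then called in place of 128. With no filter, IL1A+TNF against IL1A called 1 member in place of 2 and the interaction 0 in place of 1, and Traf2 after IL1A (FDR 0.051, over all alternatives 0.031 to 0.19) and Tradd in Sarm1-/- mice (FDR 0.087, 0.0045 to 0.37) were not called. In Sarm1-/- mice IL1A+TNF called 1 in place of 8 without mice 61924 and 61926. Between genotypes under IL1A+TNF, 0 to 2 in place of 1 were called with single WT PBS retinas or both eyes of single Sarm1-/- mice left out. It was 0 in batch 2 alone, 0 without mice 61924 and 61926 and 3 without mice 61561 and 61564. Genotype by treatment called 3 in place of 0 without mice 61561 and 61564. Except where stated, the cause was not tested. Most of these counts have no share of all genes in the same setting beside them and are not read as particular to the members. In WT mice of batch 2 alone, 4 to 6 members were called over the alternatives, in place of 5. Tnf did not pass the filter in the fits of days 14 and 35.

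Values that turned sign were as follows. With mouse as a fixed block they were -0.20 for Tnfrsf12a after IL1A, 0.089 for Fas, 0.057 for Ltbr and 0.037 for Tnfrsf1a after TNF at day 2, 0.024 for Traf2, -0.13 for Ltbr and -0.020 for Tradd at day 14, and -0.0071 for Tnfrsf1a at day 35. With single retinas left out, Tradd after TNF at day 2 ranged from -0.0086 to 0.10. With no sex term Tnfrsf1b had an interaction of 0.027 and Traf2 0.0051 at day 14. Tnfrsf10b at day 35 was 0.0024 by edgeR and 0.0052 by DESeq2. Without mouse 60584 the difference of TNF effects was -0.052 for Tradd (day 14) and -0.066 for Ltbr (day 35).

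Between genotypes in PBS retinas, the ranges with single retinas left out were -0.036 to 0.37 (Tnf), -0.089 to 0.17 (Tnfrsf1b), -0.026 to 0.18 (Ltbr) and -0.0024 to 0.084 (Traf2), and without mice 61561 and 61564 the values were -0.30 (Tnf), -0.050 (Traf2), -0.28 (Tnfrsf1b), -0.099 (Ltbr) and -0.075 (Tnfrsf1a). Under IL1A+TNF the ranges were -0.096 to 0.031 (Fas), -0.23 to 0.018 (Ltbr) and -0.013 to 0.041 (Tradd), and the values were -0.17 (Tnfrsf10b), -0.0029 (Traf2) and -0.017 (Tradd) without mice 61924 and 61926, and 0.16 (Ltbr) without mice 61561 and 61564. For genotype by treatment the range was -0.29 to 0.044 (Ltbr), and the values were -0.091 (Tnfrsf10b), -0.22 (Tnfrsf12a) and -0.068 (Traf2) without mice 61924 and 61926, and 0.13 (Tnfrsf1b), 0.26 (Ltbr), 0.074 (Tnfrsf1a) and 0.010 (Tradd) without mice 61561 and 61564.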

Other observations

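The 4 lists of other family genes were also counted in the remaining comparisons. In PBS retinas at day 14 against day 2, 5 of 20 other receptors were lower and none higher, and at day 35 there were 8 lower and none higher, beside 10.5% and 17.4% of all genes tested called as lower. Of 8 other ligands, 2 were lower at day 14 and 4 at day 35, with none higher at either day. Among 29 genes that act next to the receptors, 3 were higher and 9 lower at day 14. By day 35, 6 were higher and 8 lower. Over all genes tested, the share with a call of either sign was 19.2% (day 14) or 32.8% (day 35). In Sarm1-/- mice, IL1A+TNF retinas had 11 of 21 other receptors higher and 1 lower, 2 of 9 ligands higher and 2 lower, and 16 of 29 genes next to the receptors higher and 3 lower, beside 21.3% of all genes tested called as higher and 43.5% in either direction. Between genotypes under IL1A+TNF, 2 receptors were higher and 2 lower in Sarm1-/- retinas, and 2 genes next to the receptors were higher, beside 14.8% of all genes tested called in either direction. The list counts in Sarm1-/- mice and between genotypes come from all mice and were not made without mice 61924 and 61926. Without these mice far fewer of all genes were called after IL1A+TNF in Sarm1-/- mice, as given above.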
